A study of Homo sapiens with 8 samples.

Results

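The 4 siControl arrays describe the messenger RNA that hypoxic Huh-1 cells make when no gene has been targeted. Huh-1 is an established human hepatocellular carcinoma line. The cells were reverse-transfected with control siRNA by means of RNAiMAX and were moved 48 h later to 1% O2 for 24 h. The members were chosen by their group label alone, so they make up 4 of the 8 arrays in the series and 2 of its 4 cultures, with 2 technical arrays of each culture. The remaining 4 arrays are of cultures that received siLSD1 and the same hypoxia, and they enter none of the levels given here. Low oxygen was shared by all cultures and no normoxic arm was analysed here, so the values are levels and say nothing of what low oxygen raised or lowered. The labels call the cultures biological replicates, without saying whether they were grown on separate days, and a single cell line carries no spread between donors.

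Hepatocytes make most proteins of blood plasma, detoxify drugs, make bile acids and urea, and keep blood glucose steady. Liver tumour lines keep part of that programme, lose other parts, and often switch on genes of the fetal liver such as AFP. When oxygen is scarce, prolyl hydroxylases no longer mark the alpha subunits of the hypoxia-inducible factors (HIF) for destruction through VHL. The stabilised factors pair with ARNT and bind short DNA motifs near genes for glycolysis, blood vessel growth, mitophagy and pH control.

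The bead array gave 1 signal for each of 34602 rows named by gene or transcript, beside 92 rows of ERCC control sequences. The median signal of an array lay between 168 and 174.9, its highest signal between 66136.7 and 69357.3, and its highest ERCC row between 174.2 and 222. A row was called present when its signal exceeded every ERCC row and its deposited detection p was under 0.01 on all 4 arrays, and not detected when neither held on any array. A row was called bright with a high detection p when the signal criterion held on all 4 arrays and the p criterion on none, and mixed in all other cases. Of all rows 31.1% were present (10749 rows), 2.69% were bright with a high detection p, 20.2% were mixed and 46% were not detected. Of the 18266 rows named as a protein-coding gene these shares were 45.3%, 4.05%, 16.5% and 34.2%. These last shares are the background against which every list below is to be read, together with the 15% of protein-coding rows that lay above percentile 90 of level. Fewer cells that express a gene and less RNA per cell cannot be told apart in such samples.

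**Figure D1:**
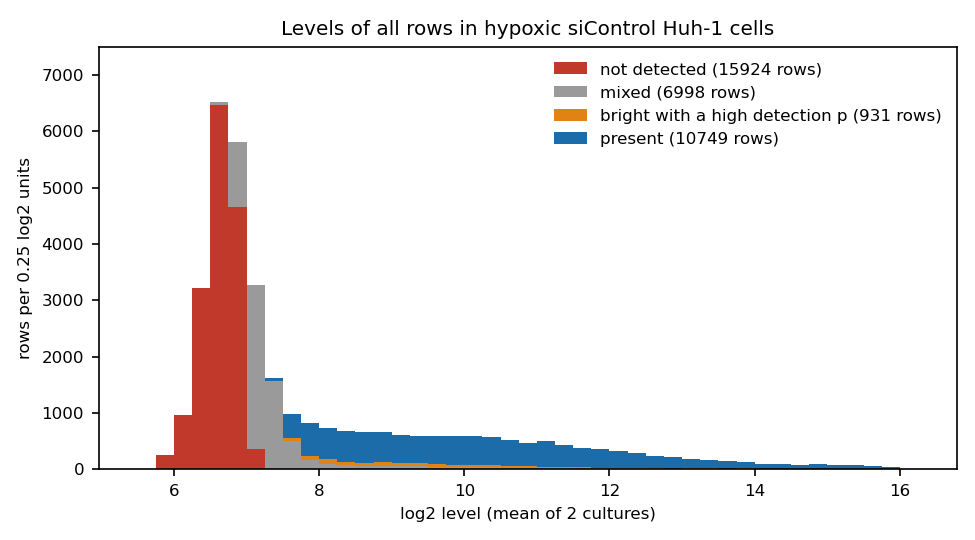
Number of rows (vertical axis) by log2 level in steps of 0.25 (horizontal axis, mean of 2 cultures), stacked by detection class. Rows not detected form a narrow peak with a median of 6.64, and present rows spread up to 16.02 with a median of 10.06.

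Levels are given as log2 of the background-corrected, quantile-normalized signal, averaged over the 2 arrays of a culture and then over the 2 cultures, with the SD over the 2 cultures. Rank and percentile place that level among all 34602 rows. Probes of different genes bind with different strength, so the order is one of signals and not of transcript copies. Signals crowd together near the top of the scanner's range, where differences between rows are compressed. Technical arrays of 1 culture differed by a median of 0.0879 log2 units over the present rows and the cultures by 0.286. Among present rows 5.44% lay more than 2-fold apart between the cultures, with 341 higher in culture 2 and 244 higher in culture 1. Only 2 cultures were measured, so a difference between them has no test, and each such value is a description of those cultures.

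Stretches of promoter sequence are shown first, because the liver genes shown differ from the hypoxia and glycolysis genes shown in base composition before the start site. Each is the 150 bases upstream of the start that RefSeq lists first, in GRCh38.p14, read 5′ to 3′ on the gene's strand, outside the transcribed part. The liver genes shown are ALB chr4:73404137-73404286 (plus strand), AFP chr4:73436071-73436220 (plus strand), APOA2 chr1:161223629-161223778 (minus strand) and FGB chr4:154562830-154562979 (plus strand). ALB, AFP and FGB encode albumin, alpha-fetoprotein and the fibrinogen beta chain, and APOA2 encodes an apolipoprotein of high-density lipoprotein. Capitals mark GTTAAT on either strand, called the liver motif in the plot by decile, and TATAAA at the usual TATA position.
ALB: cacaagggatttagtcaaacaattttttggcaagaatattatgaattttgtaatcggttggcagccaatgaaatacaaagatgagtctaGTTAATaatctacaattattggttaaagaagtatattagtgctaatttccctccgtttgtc
AFP: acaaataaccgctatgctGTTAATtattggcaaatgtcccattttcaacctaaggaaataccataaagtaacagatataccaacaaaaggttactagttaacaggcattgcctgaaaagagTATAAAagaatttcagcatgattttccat
APOA2: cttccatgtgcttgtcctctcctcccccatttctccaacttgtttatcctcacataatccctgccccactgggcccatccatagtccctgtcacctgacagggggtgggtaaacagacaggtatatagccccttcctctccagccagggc
FGB: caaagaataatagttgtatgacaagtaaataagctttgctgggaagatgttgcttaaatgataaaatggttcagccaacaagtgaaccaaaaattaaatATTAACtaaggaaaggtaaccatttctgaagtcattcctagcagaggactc

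The hypoxia and glycolysis genes shown are BNIP3 chr10:131981924-131982073 (minus strand), ADM chr11:10304923-10305072 (plus strand), CA9 chr9:35673778-35673927 (plus strand), LDHA chr11:18394413-18394562 (plus strand) and ENO1 chr1:8878687-8878836 (minus strand). LDHA and ENO1 are counted below with glycolysis and not with the hypoxia-induced genes. Capitals mark ACGTG or GCGTG on either strand, the core of the HIF motif, and TATAAA as above. BNIP3 is a mitophagy receptor, ADM the precursor of the vasodilator adrenomedullin, CA9 a carbonic anhydrase, LDHA a lactate dehydrogenase subunit and ENO1 an enolase.
BNIP3: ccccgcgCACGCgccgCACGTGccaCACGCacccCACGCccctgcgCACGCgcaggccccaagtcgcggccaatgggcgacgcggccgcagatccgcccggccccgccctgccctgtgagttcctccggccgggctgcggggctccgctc
ADM: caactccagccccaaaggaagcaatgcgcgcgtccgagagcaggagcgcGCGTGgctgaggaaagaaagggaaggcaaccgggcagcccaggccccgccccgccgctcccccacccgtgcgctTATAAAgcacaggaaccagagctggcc
CA9: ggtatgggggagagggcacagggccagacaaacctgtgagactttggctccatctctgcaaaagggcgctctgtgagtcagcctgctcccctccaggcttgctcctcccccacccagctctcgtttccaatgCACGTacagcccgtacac
LDHA: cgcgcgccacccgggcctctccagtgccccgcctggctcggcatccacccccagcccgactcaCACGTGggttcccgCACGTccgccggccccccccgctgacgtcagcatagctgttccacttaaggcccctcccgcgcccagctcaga
ENO1: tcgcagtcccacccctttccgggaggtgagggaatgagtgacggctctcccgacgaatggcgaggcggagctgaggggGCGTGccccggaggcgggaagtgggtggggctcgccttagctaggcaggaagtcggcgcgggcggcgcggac

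Over the 250 bases upstream ALB holds 3 CpG dinucleotides and AFP 1, while APOA2 and FGB hold 0. BNIP3 holds 41, ENO1 27, LDHA 22, ADM 16 and CA9 5. The printed BNIP3 stretch also holds 6 HIF core matches, 4 of them GCGTG and 2 of them ACGTG, where the palindrome CACGTG counts on each strand. A match is a string of letters and was not tested for binding, and the shares of all promoters that hold each motif are given with the promoter results.

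The cells carried most of the 10 hepatocyte and hepatoma markers chosen, which mostly encode secreted proteins. Of these 10, 8 were present, among them ALB, TTR, APOA1, APOA2, TF, FGB and AFP. SERPINA1 was bright with a high detection p, and HNF4A, the nuclear receptor that heads the hepatocyte programme, was mixed. Other hepatocyte genes, among them CYP3A4, CYP7A1, SLC10A1 and PCK1, were not detected, as given below. Markers of endothelium were almost absent: 8 of 9 were not detected, PECAM1 was mixed, and the mean signal over the 9 rows was 129.2 to 137.5 per array, below the highest ERCC row. Of 15 immune markers 3 were present, namely CD68, CD163 and CD2, and PTPRC, the antigen shared by leukocytes, was not detected. Of 14 stellate cell and fibroblast markers VIM and LUM were present and 9 were not detected, including the collagens COL1A1 and COL3A1. Bile duct markers were more often seen: 8 of 12 were present, among them the keratins KRT7 and KRT19, EPCAM and SOX9, while AQP1 and SCTR were among the 3 not detected and CFTR was mixed. Among 12 neuronal markers 4 were present, namely MAP2, TUBB3, GAD1 and SNAP25, 3 were mixed and 5 were not detected. The share present, 33.3%, lay under the 45.3% of protein-coding rows. The summed signal per array was 21415 to 26923 over the 12 bile duct rows, 7093 to 8650 over the 12 neuronal rows, 22388 to 29645 over the 14 stellate and fibroblast rows, where VIM alone gave 19335 to 26491, and 4337 to 5233 over the 15 immune rows. Their part in the other results was not tested.

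**Figure D2:**
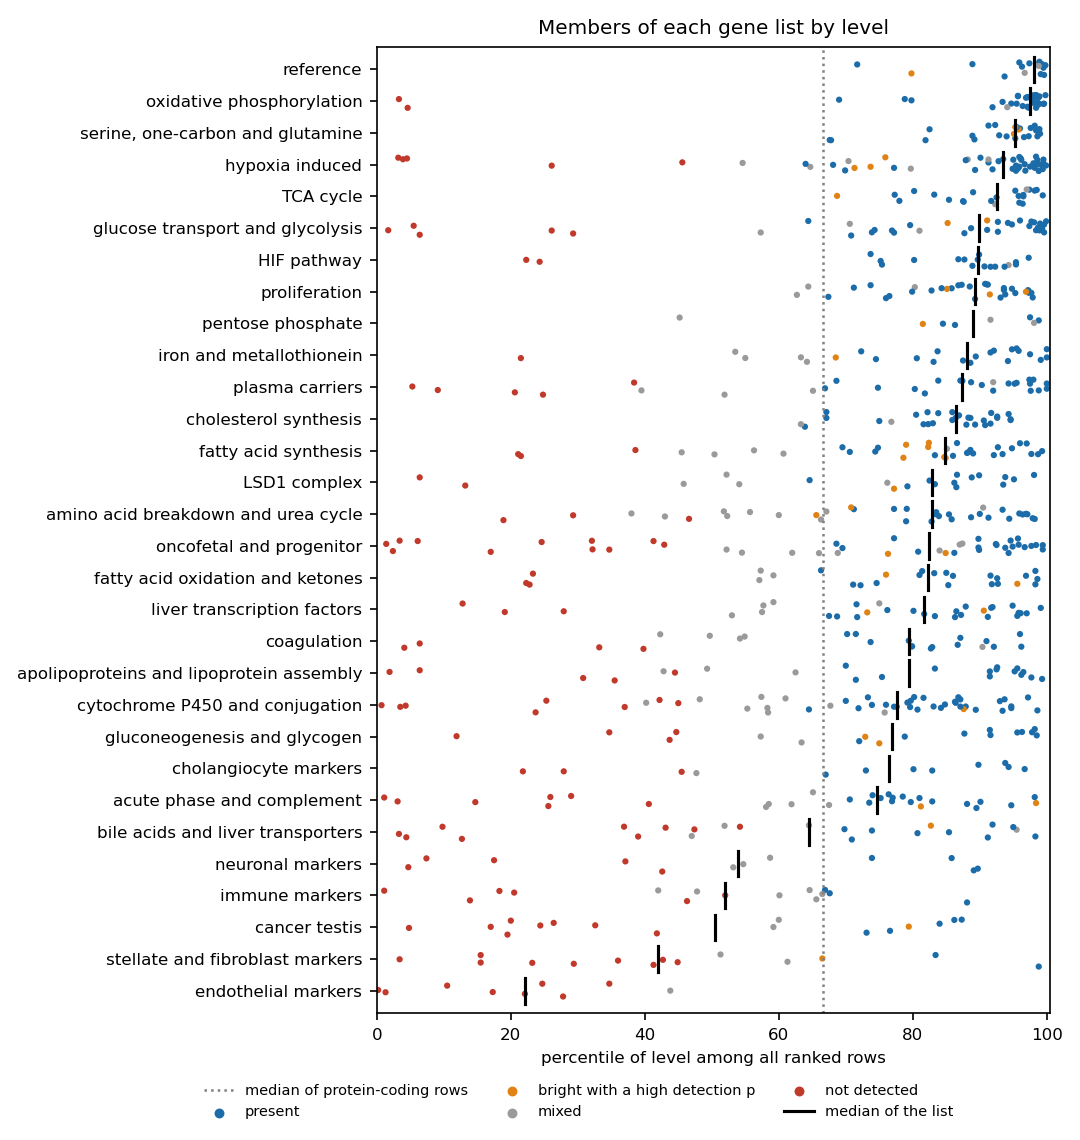
Each point is 1 gene of a list, placed by the percentile of its level among all rows (horizontal axis) and coloured by detection class. Black bars are list medians and the dotted line is the median of protein-coding rows at 66.6. The housekeeping genes, labelled reference, have the highest median (98.1). Oxidative phosphorylation (97.5), serine, one-carbon and glutamine genes (95.3) and the hypoxia-induced genes (93.5) also have high medians. Endothelial markers have the lowest at 22.1.

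Ribosomal protein genes were frequent among the highest signals that carried a gene name. Of the 100 highest rows 26 were ribosomal protein genes, 58 carried LOC names and 16 were others, all at log2 levels of at least 15.48. What the LOC rows encode was not looked up. Of 88 ribosomal protein genes 81 were present, with a median percentile of 99.4. After ribosomal genes, translation factors and unnamed rows had been set aside, the highest row was FTL, the ferritin light chain that stores iron, with signals of 61637 and 65386 in culture 1 and 69357 and 67111 in culture 2. RACK1, a scaffold on the ribosome, followed at rank 5, ALB at rank 9, TF at rank 11 and BNIP3 at rank 27. SQSTM1, an autophagy receptor, stood at rank 32, ENO1 at rank 42 and the ATP synthase subunit ATP5F1B at rank 53. PTGR1, AKR1C3, TXN and PRDX1, which act in redox defence and the reduction of aldehydes and ketones, were at ranks 88, 118, 117 and 136. PPIAL4A, ANXA2P2 and RPL14P1 also ranked within the highest 25, and these rows are uncertain, since near-identical copies of PPIA, ANXA2 and RPL14 can share their probes.

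Carriers and hormones of plasma were high as a group and uneven within it. Of 30 members 21 were present (70%), 4 were mixed and 5 were not detected, and 13 lay above percentile 90. Albumin, the main plasma protein, gave signals of 59939 and 57838 in culture 1 and 66200 and 64586 in culture 2. Transferrin (TF), the iron carrier, gave 63438 and 64478, then 58071 and 64302. Both stood at the top of the scale, with log2 levels of 15.93 ± 0.09 and 15.91 ± 0.08 (SD, n = 2), and the arrays of the cultures overlapped for TF, while those of ALB did not. AHSG, or fetuin-A, a mineral-binding inhibitor of calcification, gave 15670 and 14795 in culture 1 against 38126 and 37366 in culture 2. Its cultures lay 2.3-fold apart without overlap. ORM1, AGT and IGFBP1, encoding orosomucoid, angiotensinogen and an IGF-binding protein, had log2 levels of 13.76 ± 0.28, 13.52 ± 0.51 and 13.45 ± 0.52 (SD, n = 2), and the vitamin D carrier GC had 13.40 ± 0.43. ORM1 and ORM2 are near copies and their rows are uncertain.

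Transthyretin (TTR), the carrier of thyroid hormone and retinol-binding protein, was present at a log2 level of 10.70 ± 0.99 (SD, n = 2), from 1065 and 1085 in culture 1 to 2960 and 2354 in culture 2. HAMP, the iron hormone hepcidin, was the plasma member with the widest gap, at 2008 and 1939 in culture 1 and 19896 and 20396 in culture 2, a 10.4-fold difference. SERPINA6, the cortisol carrier, was 3.81-fold higher in culture 2. IGF1, the growth factor that adult liver secretes, was not detected, with signals of 148.6 to 159.9, and neither were HRG, ITIH3, ITIH4 and SERPINA7. The haem carrier HPX was present near the floor, at 256.7 to 291.9.

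Apolipoproteins, which package lipid for transport, followed the same order. Of 22 rows 14 were present (63.6%) and 5 were not detected, with a median percentile of 79.4. APOA2 gave 19856 and 19936 in culture 1 and 52154 and 49906 in culture 2, and APOA1, the main protein of high-density lipoprotein, gave 7636 and 7709, then 21171 and 18660. APOB, the scaffold of very-low-density lipoprotein, had a log2 level of 12.95 ± 0.74 (SD, n = 2), and MTTP, which loads lipid onto it, 12.47 ± 0.91. All 4 were over 2-fold higher in culture 2, as were APOC3, APOM and LRP1. APOC1 and APOE lay less than 2-fold apart, at 12.83 ± 0.40 and 12.62 ± 0.36. LPA, APOL1, APOF, APOD and APOC4 were not detected.

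Of 23 coagulation genes 14 were present (60.9%) and 4 were not detected. The fibrinogen chains were lower in culture 2: FGB gave 11542 and 10537 in culture 1 against 4716 and 4827 in culture 2, and FGA gave 6960 and 6354 against 1698 and 1498, a 3.99-fold gap. FGG, the third chain, was mixed, with 3611 and 3329 against 1906 and 1821, so the arrays of all 3 chains were separated the same way. The reverse held for inhibitors and factors such as SERPINF2 (5.29-fold higher in culture 2), SERPIND1 (3.25-fold), F12 (3.21-fold), F10 (2.55-fold) and F5 (2.08-fold). Prothrombin (F2) was present at a log2 level of 9.54 ± 0.43 (SD, n = 2), with arrays from 547.1 to 1237. PLG, the precursor of plasmin, was not detected, and neither were F8, F13B and PROZ.

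Acute phase and complement genes divided more sharply. Of 30 members 16 were present (53.3%), 2 were bright with a high detection p, 5 were mixed and 7 were not detected. SERPINA1, or alpha-1-antitrypsin, gave 15771 and 14380 in culture 1 and 20503 and 19397 in culture 2, with a detection p of 0.01 or more on each array. FGL1, a hepatokine, had a log2 level of 13.86 ± 0.21 (SD, n = 2), and C5, the component that starts the lytic complex, 12.30 ± 0.65. The classical inflammatory reactants were near the floor: CRP gave 133.4 to 150, SAA1 133.4 to 151.1 and SAA2 97.26 to 119.4, and all 3 were not detected. HP, haptoglobin, was mixed at 169.3 to 226.8, and its row is uncertain because HPR is a near copy. CFB, a protease of the alternative pathway, was 10.1-fold higher in culture 2, with 326.7 and 286.1 against 2815 and 2572. CFI, C8A, C8B, C8G and C2 were also over 2-fold higher in culture 2, and SAA4 was 2.23-fold lower there. C9, CLU, MASP2 and C1R were not detected.

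Among 31 transcription factors of the liver 21 were present (67.7%) and 3 were not detected. CEBPB, which drives acute phase genes, stood highest with signals of 27126 to 30677 and a log2 level of 14.81 ± 0.03 (SD, n = 2). CEBPD, HHEX and FOXA1 followed at 13.20 ± 0.19, 12.80 ± 0.03 and 12.68 ± 0.24. CEBPA, the factor linked to hepatocyte quiescence, gave 3914 and 3634 in culture 1 and 11154 and 10030 in culture 2. NR1H4, the bile acid receptor FXR, gave 978.3 and 967.6, then 3749 and 3344, and PROX1 was 2.61-fold higher in culture 2. HNF4A had signals of 163.2 and 169.8 in culture 1 and 219.3 and 225.6 in culture 2, and met the detection criterion on 2 arrays. The xenobiotic receptor NR1I3 was not detected, and its relative NR1I2 and the lipid receptor PPARA were mixed. FOXA2 was bright with a high detection p at 2219 to 3129.

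Drug-metabolising enzymes were present in number without several that dominate adult liver. Of 49 phase 1 and phase 2 genes 31 were present (63.3%), 9 were mixed and 8 were not detected. The highest was the quinone reductase NQO1 at a log2 level of 14.26 ± 0.04 (SD, n = 2), followed by the epoxygenase CYP2J2 at 13.30 ± 0.10. Of the 3 CYP3A genes, CYP3A5 gave 3953 and 4182 in culture 1 and 4570 and 4418 in culture 2. CYP3A4, the main adult form, gave 128.5 to 158.4 and was not detected, and the fetal form CYP3A7 was mixed at 125.6 to 192.7. CYP1A2, CYP2A6, CYP2B6, CYP2D6 and CYP2E1 were not detected either. The glutathione transferases GSTA1 and GSTA2 and the glucuronosyltransferase UGT2B7 were at 12.31 ± 0.21, 11.97 ± 0.56 and 12.33 ± 1.15, and close relatives may share their probes. Culture 2 was over 2-fold higher for UGT2B7, UGT2B4, UGT2B10, CYP24A1, CYP26B1, CYP2C18 and CYP4F3, and lower for CYP4A11. NNMT, a nicotinamide methyltransferase, was mixed, with 1794 and 1687 in culture 1 against 224 and 198.6 in culture 2, near the highest ERCC row.

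Bile acid handling showed the lowest share of present genes among the liver lists, at 9 of 23 (39.1%), with 9 not detected. AKR1D1, a reductase of bile acid synthesis, was high at 13453 and 14129 in culture 1 and 18732 and 19026 in culture 2. ABCC2, an export pump for conjugates, the conjugating enzyme BAAT and the sterol hydroxylase CYP27A1 had log2 levels of 12.42 ± 0.66, 11.61 ± 0.11 and 11.46 ± 0.05 (SD, n = 2). CYP7A1, the rate-limiting enzyme of the classical route, gave 102.7 to 140.8 and was not detected, and neither was CYP8B1, which sets the share of cholic acid. The uptake carriers SLC10A1, SLCO1B1 and SLCO1B3 and the bile salt export pump ABCB11 were not detected. FGF19, the gut hormone that represses CYP7A1, was mixed at 219.5 to 271, with a detection p under 0.01 on all 4 arrays.

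**Figure D3:**
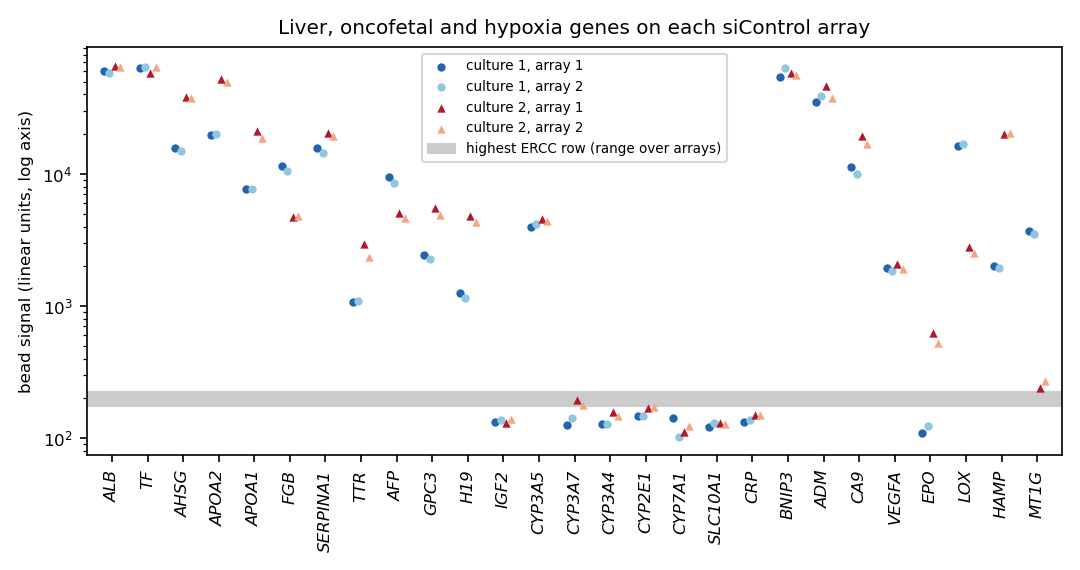
Deposited signal (vertical log axis, linear bead units) of liver, oncofetal and hypoxia genes on each of the 4 arrays, with circles for culture 1, triangles for culture 2 and a grey band for the highest ERCC row. ALB, TF and BNIP3 lie between 53774 and 66200, and CYP3A4, CYP7A1, CRP and IGF2 lie below the band.

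Amino acid and urea cycle genes were mostly present, at 21 of 35 (60%), with 3 not detected. CPS1, the first enzyme of the urea cycle, gave 23698 and 23601 in culture 1 and 4042 and 3394 in culture 2, a 6.47-fold gap. ARG1, the last, had a log2 level of 10.03 ± 0.35 (SD, n = 2), and OTC was mixed, with 188.6 and 187.4 against 440.1 and 435.5. Of the methionine adenosyltransferases, MAT2A, the form of dividing cells, gave 14878 to 15905, and MAT1A, the form of adult liver, was mixed at 140 to 186. GLUL, or glutamine synthetase, gave 138.5 to 153.2 and was not detected, as were AGXT and SDS. The mitochondrial alanine transaminase GPT2 stood at 13.68 ± 0.22, while the cytosolic GPT was 2.71-fold higher in culture 2 at 9.21 ± 1.02.

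Oncofetal and progenitor genes covered the full range from the top to the floor. Of 42 members 21 were present (50%), 2 were bright with a high detection p, 8 were mixed and 11 were not detected, and 13 lay above percentile 90. AKR1B10, an aldo-keto reductase raised in liver cancer, gave 33390 and 32667 in culture 1 and 39996 and 38574 in culture 2. SPINK1, a secreted trypsin inhibitor, gave 38862 and 35809, then 32790 and 29201. Both had log2 levels above 15, at 15.14 ± 0.03 and 15.06 ± 0.32 (SD, n = 2), with cultures less than 2-fold apart. AFP, the fetal counterpart of albumin, gave 9472 and 8554 in culture 1 and 5039 and 4669 in culture 2, all 4 arrays well above the ERCC rows. GPC3, a heparan sulfate proteoglycan of fetal liver, ran the other way, with 2453 and 2285 against 5530 and 4900. The imprinted RNA H19 did likewise, with 1245 and 1154 against 4778 and 4364, a 4.1-fold gap.

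IGF2, which neighbours H19 and is imprinted from the other parental copy, was not detected on any array, at 129.8 to 139.5. Of the IGF2 mRNA-binding proteins, IGF2BP2 and IGF2BP3 were present at log2 levels of 12.65 ± 0.23 and 11.74 ± 0.00 (SD, n = 2) and IGF2BP1 at 8.19 ± 0.08. LIN28B, the inhibitor of let-7 maturation, was present at 11.19 ± 0.36, and its paralogue LIN28A was not detected, at 108.7 to 119. Stem and progenitor markers divided in the same manner. CD24, SOX4 and EPCAM were present at 13.55 ± 0.63, 12.29 ± 0.21 and 11.17 ± 0.23, and PROM1 at 9.75 ± 0.41. KIT, LGR5, SOX2, THY1, DLK1 and HMGA2 were not detected. DKK1, a secreted Wnt antagonist, was mixed, with 4343 and 4391 in culture 1 against 781 and 709.3 in culture 2. Keratins of both the hepatocyte (KRT8, KRT18) and the bile duct (KRT7, KRT19) were present.

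Cancer testis genes, normally silent outside the germ line, were present in part. Of 16 with a row 5 were present (31.2%), 8 were not detected and none lay above percentile 90. CTAG2 gave 1511 to 1947, MAGEA6 1260 to 1974 and MAGEA1 964.2 to 1578, and SSX2 and MAGEC2 were present at log2 levels of 9.14 ± 0.33 and 8.66 ± 0.00 (SD, n = 2). MAGEA4, MAGEA10, CTAG1B, GAGE1, PRAME and PAGE4 were among those not detected. Members of the MAGEA, GAGE, CTAG and SSX families are close in sequence, so a signal may come from more than 1 of them.

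The oxygen-sensing machinery was present nearly throughout, at 16 of 19 genes (84.2%). EPAS1, which encodes HIF-2 alpha, gave 6783 and 6423 in culture 1 and 5395 and 5583 in culture 2, a log2 level of 12.55 ± 0.13 (SD, n = 2). HIF1A gave 624.8 and 618.9, then 454.6 and 455.2, a level of 8.93 ± 0.37. These rows report RNA only, and the HIF alpha subunits are controlled chiefly as proteins. ARNT, the shared partner, was at 8.75 ± 0.02, and HIF3A and ARNT2 were not detected. The prolyl hydroxylases EGLN1 and EGLN3 were at 11.36 ± 0.27 and 11.20 ± 0.23, and EGLN2 was mixed at 12.22 ± 0.55. VHL, which recognises the hydroxylated form, was at 10.65 ± 0.61, and its partners ELOB, ELOC, CUL2 and RBX1 were present. CITED2, which competes with HIF for its coactivators, stood highest at 13.35 ± 0.21. No member of this list that was present lay more than 2-fold apart between the cultures.

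Genes known to be induced by hypoxia ranked high. Of 49 with a row 35 were present (71.4%), 3 were bright with a high detection p, 6 were mixed and 5 were not detected. A total of 30 lay above percentile 90 (61.2%), and the median percentile was 93.5. For the 16 housekeeping genes the share above percentile 90 was 81.2% and the median percentile 98.1. BNIP3 gave 53774 and 63442 in culture 1 and 58466 and 56198 in culture 2, so that the cultures overlapped. ADM gave 35259 and 39245, then 45968 and 37274, and NDRG1, a stress-response gene, gave 34460 and 30304, then 41004 and 43045. Their log2 levels were 15.81 ± 0.07, 15.26 ± 0.04 and 15.17 ± 0.13 (SD, n = 2). MIF, a cytokine, was at 15.08 ± 0.08. DDIT4, an inhibitor of mTORC1, was at 14.81 ± 0.75 and 2.08-fold higher in culture 2.

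The kinases PFKFB3 and PFKFB4, which make the activator of phosphofructokinase, were at 14.44 ± 0.05 and 14.41 ± 0.16 (SD, n = 2). The repressor BHLHE40 was at 14.25 ± 0.03, while its paralogue BHLHE41 was not detected, at 114.2 to 125. CA9, which hydrates carbon dioxide at the cell surface, gave 11268 and 10036 in culture 1 and 19277 and 16919 in culture 2. Of the collagen-modifying enzymes in the list, PLOD1, PLOD2, P4HA1 and LOX were present at 13.93 ± 0.45, 13.88 ± 0.32, 12.73 ± 0.19 and 12.72 ± 1.86, and P4HA2 was mixed. LOX, lysyl oxidase, carried the widest gap of the list among present genes, with 16394 and 16743 in culture 1 against 2784 and 2520 in culture 2, a 6.16-fold difference. Its relative LOXL2 was not detected.

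VEGFA, the best known angiogenic target, gave 1839 to 2095 and was mixed, since its detection p was under 0.01 on only 2 arrays. EPO, erythropoietin, was seen in 1 culture alone, with 110 and 123.3 in culture 1 and 627 and 528.6 in culture 2. COXFA4L2, listed in the table under its older name NDUFA4L2, which remodels the respiratory chain under low oxygen, gave 302.2 and 279.1, then 1390 and 1405. STC1 and TXNIP were over 2-fold lower in culture 2. CXCR4, FGF21 and RORA were not detected. The histone demethylase KDM3A was at 12.55 ± 0.31 (SD, n = 2), and its relative KDM4C lay near the floor at 202.8 to 264.9.

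Glucose transport and glycolysis stood out by isoform. Of 36 genes 26 were present (72.2%), 18 lay above percentile 90 (50%) and 5 were not detected. Of the glucose transporters, SLC2A1, or GLUT1, gave 14080 and 14130 in culture 1 and 16494 and 13011 in culture 2. SLC2A2, the low-affinity carrier of hepatocytes, gave 449.3 to 537.8 and was present, and SLC2A3 was not detected. Of the hexokinases, HK2 gave 3308 and 3220, then 2574 and 2295, and HK1 was bright with a high detection p at 1333 to 1435. HK3 was not detected, at 104.3 to 135.1.

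Of the phosphofructokinases, PFKP was at 14.35 ± 0.18 and PFKM at 10.98 ± 0.13 (SD, n = 2), while the liver form PFKL was mixed at 9.77 ± 0.16. Of the aldolases, ALDOC gave 15772 to 17354 and ALDOA 6541 to 7537. ENO1 gave 61362 and 55165, then 51187 and 52546, with ENO2 at 11.80 ± 0.48 and ENO3 at 10.81 ± 0.65. PKM was present at 4447 to 5090, and PKLR, the form of liver and red cells, was mixed at 150.9 to 251.2. LDHA and LDHB were at 15.28 ± 0.16 and 13.56 ± 0.05. GAPDH, GPI, TPI1 and PGK1, each represented by a single main form, were between 14.57 ± 0.10 and 15.28 ± 0.06.

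The pyruvate dehydrogenase kinases, which divert pyruvate from the mitochondrion, were all present, with PDK1 at 9.22 ± 0.05, PDK4 at 9.18 ± 0.09, PDK3 at 8.83 ± 0.05 and PDK2 at 7.66 ± 0.09 (SD, n = 2). The lactate exporter SLC16A3 was mixed, with 204.7 and 194.8 in culture 1 against 701.1 and 644.9 in culture 2, and SLC16A1 was not detected. The chaperone of both carriers, BSG, was bright with a high detection p at 2221 to 3252.

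**Figure D4:**
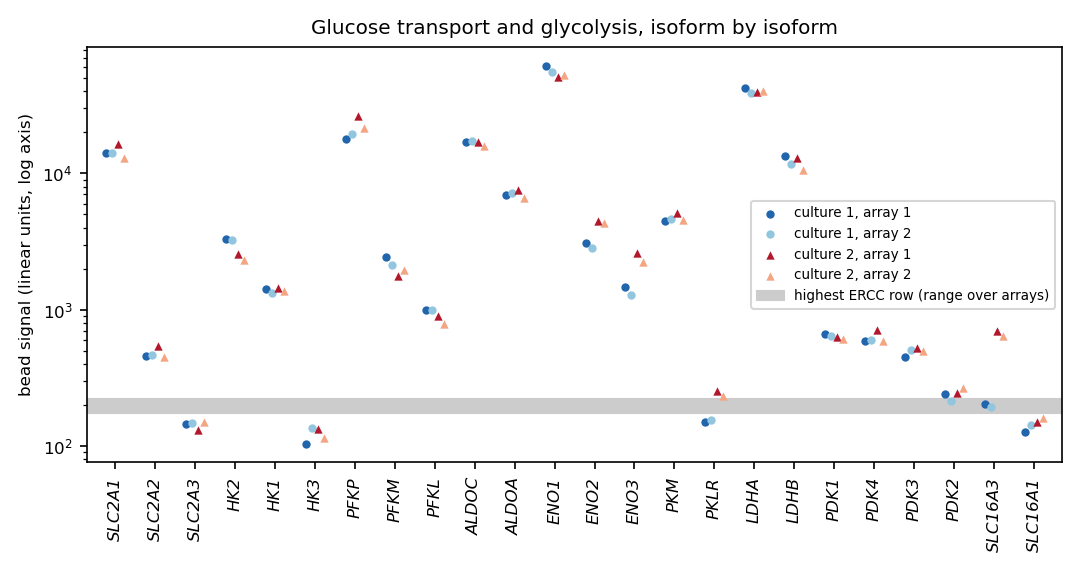
Deposited signal (vertical log axis, linear bead units) of glycolysis genes grouped by isoform on each of the 4 arrays, with circles for culture 1, triangles for culture 2 and a grey band for the highest ERCC row. SLC2A1, PFKP, ALDOC, ENO1 and LDHA lie at 13011 or higher, and SLC2A3, HK3 and SLC16A1 lie below the band.

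Of 18 genes of gluconeogenesis and glycogen metabolism 10 were present (55.6%) and 4 were not detected, and 7 of the present genes act on glycogen. PCK1, the cytosolic carboxykinase that commits carbon to glucose, gave 152.6 to 175.9 and was not detected, while the mitochondrial PCK2 was present at a log2 level of 10.80 ± 0.57 (SD, n = 2). G6PC1, which releases free glucose, was mixed at 189.3 to 285.7, and FBP1 was 2.18-fold higher in culture 2 at 8.52 ± 0.79. On the glycogen side PGM1, the scaffold PPP1R3C and the phosphorylase PYGL were at 14.17 ± 0.06, 13.87 ± 0.43 and 12.87 ± 0.17. The liver glycogen synthase GYS2 was not detected, and GYS1, the form of other tissues, was present at 9.44 ± 0.16. In the pentose phosphate pathway TKT, PGD, PGLS and RPIA were present and none of 8 genes was not detected.

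Most of the listed genes of oxidative phosphorylation and the TCA cycle were present. Of 36 genes of oxidative phosphorylation 33 were present (91.7%), 31 lay above percentile 90 (86.1%) and the median percentile was 97.5. ATP5F1B gave 52276 and 53985 in culture 1 and 54787 and 49767 in culture 2. COX4I1, the common form of cytochrome oxidase subunit 4, gave 36572 and 37852, then 46834 and 40115, and COX4I2, the form that HIF can switch on, was not detected at 112 to 124.7. COX7A1, the form of muscle, was not detected, and COX7A2 was at 14.34 ± 0.04 (SD, n = 2). No present member lay more than 2-fold apart between the cultures. Of 23 genes of the TCA cycle 20 were present (87%) and none was not detected, with MDH2 at 15.09 ± 0.18 and IDH1 at 14.10 ± 0.10.

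Fatty acid oxidation was present at 18 of 26 genes (69.2%). ETFA, ECHS1 and ACAT1 were at log2 levels of 14.19 ± 0.26, 13.98 ± 0.17 and 13.96 ± 0.04 (SD, n = 2). CPT1A, the gate of the mitochondrion in liver, was at 8.41 ± 0.31, and the muscle form CPT1B was not detected. OXCT1, which hepatocytes lack and which burns ketones, was not detected. Of 34 genes of fatty acid synthesis and storage 20 were present (58.8%), with 6 bright with a high detection p (ACACA, ACSS2, CD36, SREBF1, ACSL5 and ACSL4). SCD, the desaturase, gave 28912 and 26561 in culture 1 and 36360 and 37734 in culture 2, and the droplet protein PLIN2 gave 15157 and 13512, then 32526 and 30471. FASN was at 13.17 ± 0.59. FABP1, the abundant fatty acid binder of hepatocytes, was mixed at 148.4 to 194.6, and PNPLA3, THRSP and FABP4 were not detected. Cholesterol synthesis had the highest share of present genes among the 30 lists, with 27 of 29 (93.1%) and none not detected, and levels from 7.55 ± 1.11 for SOAT2 to 12.29 ± 0.31 for NSDHL.

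Serine, folate and glutathione metabolism was high in both cultures. Of 25 genes 22 were present (88%), 3 were bright with a high detection p (PSAT1, GPX1 and MTHFD2), and 19 lay above percentile 90 (76%). PHGDH, which opens serine synthesis, gave 22814 and 20041 in culture 1 and 22195 and 22198 in culture 2, and the mitochondrial SHMT2 gave 23475 and 22398, then 25843 and 25555. GPX4, which detoxifies lipid peroxides, was at 14.68 ± 0.10 (SD, n = 2), and the amino acid carrier SLC7A5 at 14.01 ± 0.11. The cystine carrier SLC7A11 was present at 257.4 to 319.5.

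Iron and metal genes included the metallothioneins, whose arrays lay far apart between the cultures. Of 24 members 18 were present (75%), and 7 of these were over 2-fold higher in culture 1 and 2 in culture 2, against the 5.44% of present rows that differed that far in either direction. All 8 metallothionein rows, which encode small zinc and copper binders, were lower in culture 2. MT1G gave 3674 and 3503 in culture 1 against 238.6 and 269.6 in culture 2, a 16.4-fold gap, MT1X 8852 and 8148 against 1144 and 1042, and MT1A 11808 and 11556 against 2422 and 2202. The zinc exporter SLC30A1 was 2.99-fold lower there, and the metal sensor MTF1 differed by less than 2-fold, at a log2 level of 10.98 ± 0.09 (SD, n = 2). Metallothionein genes are near copies of each other, so the 8 rows are not independent measurements. The hepcidin gene HAMP and the iron importer SLC11A2 were higher in culture 2. TFRC, the transferrin receptor, was at 14.81 ± 0.20, and TFR2, its hepatocyte relative, was not detected.

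Proliferation genes were present at 27 of 33 (81.8%), with none not detected. CDK4, CCND1, RRM1 and MYC were at log2 levels of 13.69 ± 0.09, 13.59 ± 0.06, 13.36 ± 0.33 and 13.34 ± 0.37 (SD, n = 2), while MKI67 was mixed at 200.9 to 258.8. MCM7, PCNA and CDKN1A were bright with a high detection p. CCNE1 and RRM2 were the 2 present members over 2-fold lower in culture 2. Genes of the complex around LSD1, the histone demethylase that the other arm of the series depletes, were present at 13 of 20 (65%). KDM1A, which encodes it, was at 11.99 ± 0.25, the deacetylases HDAC1 and HDAC2 at 13.81 ± 0.27 and 12.07 ± 0.01, and the corepressor RCOR1 was not detected while RCOR3 gave 1760 to 2345.

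Plasma carriers had a median percentile of 83.8 in culture 1 and 90.2 in culture 2, and apolipoproteins 75.7 and 84.0. All 12 present members of these lists that lay over 2-fold apart were higher in culture 2. For glycolysis the medians were 90.1 and 90.2, for hypoxia-induced genes 93.5 and 93.0, and for oxidative phosphorylation 97.6 and 97.4. Iron and metallothionein genes ran the other way, at 89.2 and 82.9. Over all present rows the 2 cultures correlated at a Spearman rho of 0.956, and 91 of the 100 highest rows of 1 culture were among the 100 highest of the other. Whether day, density or time in hypoxia differed between the cultures is not given in the sources used here, and no cause was tested.

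The CpG content of promoters was lower in the low deciles of level and nearly flat over the upper ones. Among 14633 protein-coding rows with a RefSeq promoter, the median number of CpG in the 250 bases upstream was 6 in the lowest decile of level, 12 in the fourth, 19 in the fifth and 21 in the highest. Across these genes, which are not independent replicates and whose probes also differ in base composition, Spearman's rho between CpG count and level was 0.354. The TATA-like motif TATAAA, placed 45 to 11 bases before the start on the gene's strand, was found in 6.97% of promoters in the lowest decile, in 1.16% of those in the eighth and in 3.28% of those in the highest. It was found in 2.68% of all 27303 promoters of the table.

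**Figure D5:**
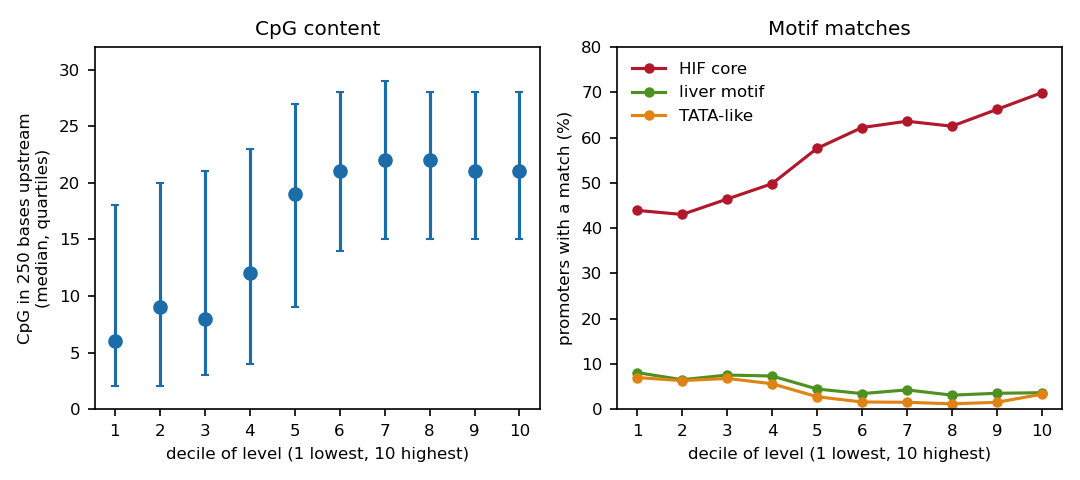
Left, CpG in 250 bases upstream (median with quartiles) and right, percent of promoters with each motif, both by decile of level from 1 (lowest) to 10 (highest) over 14633 genes. The median CpG count goes from 6 to 21, and HIF core matches go from 43.9% to 69.9% of promoters.

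The secreted liver genes departed from that trend. The 24 plasma carriers with a promoter, of 30, had a median of 4 CpG and the 21 coagulation genes, of 23, a median of 2, against 18 over all protein-coding rows with a promoter, although 70% and 60.9% of these lists were present. GTTAAT on either strand within 250 bases upstream and 50 downstream was found in 6 of the 24 (25%) and in 7 of the 21 (33.3%), against 5.17% of protein-coding rows and 6.89% of all promoters of the table. ALB, at rank 9, is among the carriers that hold it, and AFP, at percentile 95.8 and counted with the oncofetal genes, holds it too, as their printed stretches show. APOA2, at percentile 99.3, has no match in its printed stretch. Among present coagulation genes GTTAAT was held by 4 of 12 with a promoter, of 14 (33.3%), the same share as in the list. Across the 14633 genes it was held by 8.06% of promoters in the lowest decile of level and 3.62% in the highest. Median G+C of the promoters was 51.4% for the carriers and 47.6% for the coagulation genes, against 62.8% over protein-coding rows with a promoter. GTTAAT is made mostly of A and T, so a promoter low in G+C has more places for a match. Whether the motif exceeds what base composition gives was not tested.

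The hypoxia-induced genes had a median of 22 CpG, and 34 of the 40 with a promoter, of 49, held ACGTG or GCGTG on either strand (85%). For all protein-coding rows with a promoter that share was 56.5%, for the upper quartile of level 66.8% and over the 27303 RefSeq promoters 48.4%. Of the 29 present members with a promoter 28 held a match (96.6%). Shares of similar size were also found outside the hypoxia-induced list. A match was held by 10 of 11 present housekeeping genes with a promoter, of 13 (90.9%). For present genes of fatty acid synthesis it was 15 of 18 (83.3%). The housekeeping list includes GAPDH and PGK1, which are also counted with glycolysis. Both motifs contain CG, so a promoter rich in CpG has more places for a match. Glycolysis genes held it in 19 of 32 promoters (59.4%), close to the share of protein-coding rows, and coagulation genes in 6 of 21 (28.6%). Apolipoproteins, acute phase genes and drug-metabolising enzymes had a promoter for under 80% of their members, so no share is given for them.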

How the data were processed

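Gene expression was measured on 8 Illumina bead arrays, of which the 4 siControl arrays were used, 2 technical arrays from each of 2 cultures grouped by their labels. The authors deposited linear, non-normalized average bead intensity for 34694 rows named by symbol, with BeadStudio 3.1.1.0 named in the submitters' processing notes. The deposited detection p-value of each row and array was used as given, and how it was computed, or probes were combined into a row, is not given in the sources used here. The authors' normalized intensity table, deposited with the series, served as an alternative.

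Signals were corrected with normexp (offset 50) and quantile-normalized over the 4 arrays in limma 3.58.1 (R 4.3.3), and log2 levels were averaged over technical arrays and then over cultures. Ranks and summaries were made in Python 3.11.15 with pandas 2.3.3. Row names were updated through RefSeq gene names for GRCh38.p14: 17762 were current symbols, 2735 older symbols, 720 ambiguous or clashing, and 13385 had no match. Promoters were taken from the RefSeq table at its first listed start. The array's precision is limited by 2 cultures, and no test was made.

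The 30 lists, with 738 distinct genes, and the set of arrays were chosen with earlier results of these data known. Genes were named by a rule: the 25 highest rows apart from ribosomal, translation and unnamed rows, and in each list up to 6 of the highest and up to 6 undetected members, those bright with a high detection p, those over 2-fold apart between cultures, and set isoform families. Further members were named after their values were seen. XAGE1, BAGE, AK4, NDUFA4 and CDK1 had no matching row. Metallothionein, ORM, GSTA, UGT2B, MAGEA, GAGE, CYP4F and HP rows may share probes with near copies and are uncertain. Alternatives were the detection rule, background correction, normalization, the set of arrays and the rows ranked. Comparison of protein length was not made. Not every gene that the rule names is reported here, and counts of the lists include all members with a row.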

Additional observations from a re-analysis of the deposited data

How the results depend on the processing

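Of 10749 present rows in the main setting, the count lay within 1.5 times under each alternative run. By signal above the ERCC rows alone, 42 hypoxia-induced genes were present against 35, and 27 oncofetal genes against 21. Drug-metabolising enzymes then numbered 34 against 31, glycolysis genes 29 against 26, plasma carriers 22 against 21 and oxidative phosphorylation genes 34 against 33. The number of rows bright with a high detection p was 521 at a detection p under 0.05, and between 992 and 1809 when 1 array or culture was left out, against 931. Mixed rows numbered 3851 by detection p alone and 3467 to 6412 when 1 array or culture was left out, against 6998. Leaving out culture 1 gave the 1809 bright rows and 4089 mixed rows, and leaving out culture 2 gave the 3467 mixed rows, where fewer arrays leave fewer ways to disagree. Ranked among present rows only, which takes away the undetected rows beneath, the median percentile was 75.8 for plasma carriers, 53.4 for drug-metabolising enzymes, 81.2 for oncofetal genes, 87.6 for hypoxia-induced genes, 83.4 for glycolysis and 93.4 for oxidative phosphorylation. With 1 array or culture left out the medians ran from 76.7 to 80.6 for drug-metabolising enzymes, 80.1 to 82.5 for oncofetal genes, 93.0 to 93.6 for hypoxia-induced genes and 89.7 to 90.2 for glycolysis, and the median of the 4 arrays gave 90 for glycolysis. Of 261 named genes, all 261 kept their percentile within the spread between cultures with all 8 arrays normalized together, with median scaling, without background correction and with the median of the arrays, 260 with the authors' table and 258 with neqc. Without culture 1 it was 245, with a largest move of 41.2 percentile points, and without culture 2 it was 234, with a largest move of 59.2. The spread is the SD over the same 2 cultures, so leaving 1 of them out stays within it for most genes by construction. The counts without a culture therefore cannot show that the percentiles are stable. The CpG gap was 14 between the upper and lower quartile of level and 13 between present and undetected rows, although only 76.5% of undetected protein-coding rows had a promoter, against 83% of present ones. No paired analysis applied, because only the siControl group was used, and the levels come from no test. Signals below the highest ERCC row limit what can be said of low genes, and signals near the array maximum compress the order at the top.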
